A study of Gallus gallus with 6 samples.

Results

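The T cell receptor and the proteins that pass on its first signal were followed in the ileum, the final stretch of small intestine, through 9 genes: CD3D, CD3E, CD4, CD8A, CD5, CD28, LCK, ZAP70 and TRAT1. They were taken by gene symbol from a deposited table of 17623 rows. These 9 symbols stand in 11 rows, because CD8A names 3, and 9 rows, 1 for each symbol, had enough counts to be tested. All libraries came from Taiping chickens, labelled male and 2 months old. The control birds ate a basal corn and soybean diet, and the other birds had the same diet with fructooligosaccharide, a chain of fructose units fermented by gut bacteria, at 1 mL per litre of water. Both the supplement and the group that received it are called FOS. Each group had 3 libraries of bulk ileum RNA, whose values are given in the order of their numbers 1, 2 and 3. In bulk RNA fewer T cells and less RNA per T cell cannot be told apart.

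A T cell recognises antigen through a receptor whose variable chains have almost no signalling part of their own. The CD3 chains and the zeta chain (CD247) carry the signalling motifs. CD4 or CD8 binds the presenting MHC molecule and brings the kinase LCK to the receptor, LCK phosphorylates the motifs, and the kinase ZAP70 docks there and starts the cascade. CD28 gives the second signal that naive T cells need, CD5 dampens the response, and TRAT1 is a transmembrane adaptor that associates with the receptor and CD3. These roles, and those given below, are known mainly from human and mouse. Birds have 1 CD3 gene, here CD3D, that stands for both the gamma and the delta chain of mammals. The gut epithelium and the tissue beneath it hold many T cells, in chickens with a large gamma-delta fraction.

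The deposited counts summed to between 14668289 and 18106651 per library. The 6 ileum markers FABP6, SLC10A2, SLC51A, SLC51B, CUBN and AMN were all detected, and the summed level of 6 liver and pancreas genes was 1.65 to 2.72 CPM per library (read counts on a scale common to all library sizes). The ileum markers summed to 6180, 5630 and 4990 CPM across the control libraries against 4700, 1580 and 2040 CPM across the FOS libraries. Of these 6, 5 had a positive log2 fold change of FOS against control and 1 a negative one (-1.23). Their median was 0.37, and 0.08 without FOS 1. Of all 13807 genes tested, 7049 had a positive value. The W-linked gene Wpkci-7 stood at 111 to 158 CPM in 4 libraries and at 0.0697 and 0.173 CPM in FOS 2 and control 2, although males carry no W chromosome, so 4 libraries went against their label, 2 in each group. Whether each library is a separate bird is not stated in the labels. The p-values therefore reflect differences among these 6 libraries, which may be partly technical.

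The first question was how abundant these transcripts are. Levels per length are given as FPKM (fragments normalised to gene length and library size), the authors' own values. In control ileum CD3D stood at 261 ± 10.1 FPKM and CD3E at 246 ± 20.2 FPKM (SD, n = 3), higher than 98.2% and 98.1% of the genes tested. CD3D and CD3E overlapped between libraries, so their order was not resolved. Next came CD8A at 31.5 ± 2.77, LCK at 30.3 ± 3.02 and ZAP70 at 28.7 ± 2.42 FPKM (SD, n = 3), which overlapped one another and lay well below the CD3 chains in every library. TRAT1 at 16.2 ± 1.81, CD4 at 15.3 ± 1.28 and CD5 at 14.6 ± 1.75 FPKM (SD, n = 3) came after these, again with overlapping libraries. CD28 was the lowest, at 5.6 ± 0.718 FPKM (SD, n = 3), and its highest control library, 6.4 FPKM, lay under the lowest value of every other member.

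The same tiers stood in FOS. CD3E was at 202 ± 22.9 and CD3D at 180 ± 25.2 FPKM (SD, n = 3), the reverse of their order in control, with overlapping libraries in both groups. CD8A stood at 30.3 ± 4.93, ZAP70 at 25 ± 2.6 and LCK at 24.4 ± 3.03 FPKM (SD, n = 3). TRAT1 stood at 13.8 ± 0.0306, CD5 at 11.5 ± 1.54, CD4 at 10.8 ± 3.01 and CD28 at 4.5 ± 1.15 FPKM (SD, n = 3). TRAT1 varied least between FOS libraries and CD4 most for its level.

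The main question was whether these transcripts differed between the groups. Of the 9 genes, 8 had a lower mean in FOS, by 8.68% for ZAP70 to 28.8% for CD4 in the fitted fold change. CD8A alone, in the row tested for it, had a higher mean. With edgeR's quasi-likelihood test and Benjamini-Hochberg adjustment over 13807 genes, 0 of 9 passed the threshold of 0.05, where 0.0217% of all genes passed. The smallest adjusted p of a member was 0.434, that of CD3D. At an unadjusted p under 0.05 there were 2 members, CD3D and CD4, both lower, where 9.42% of all genes, and 4.27% in the lower direction, reached that level. Among the 8826 genes within the members' range of mean CPM, 4.66% were lower at that level. DESeq2 called 1 member, CD3D, where it called 1.08% of all genes (0.319% lower), and 0 with the replicate number as a block, where it called 0.833%. The limma-voom test called 0 members, where it called 0.00724% of all genes. On CPM, CD3D and CD4 were also the 2 members whose groups did not overlap, where 7.84% of all genes, and 8.17% at the members' level, were lower without overlap (16.4% in either direction). On the deposited FPKM the members without overlap were CD3D, LCK and TRAT1, and CD4 overlapped, with FOS 2 at 13.86 and control 2 at 13.85 FPKM. The share of all genes without overlap on FPKM was not computed. On log2(FPKM + 1) the median log2 fold change of all genes was -0.058, beside 0.007 in the edgeR fit. There 3 members, CD3D, CD4 and LCK, and 6.35% of all genes were lower at an unadjusted limma p under 0.05. Within libraries of the same number, CD3D, CD4, CD28 and TRAT1 were lower with FOS in 3 of 3 pairs on CPM. The share of all genes lower in 3 of 3 pairs was not computed. With the replicate block in edgeR 0 of 9 passed.

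CD3D (ENSGALG00000007418), the signalling chain that birds use for gamma and delta, read 220, 215 and 223 CPM across the control libraries against 137, 169 and 170 CPM across the FOS libraries. Every FOS library lay below every control library, and the control libraries differed by little. The group values were 219 ± 4.37 and 158 ± 18.4 CPM (SD, n = 3), or -0.47 as a log2 fold change (SE 0.12, edgeR adjusted p = 0.434). Its DESeq2 adjusted p was 0.045, and 0.209 with the replicate number as a block (0.045 to 0.885 over all alternatives), so the call rests on 1 tool without the block. Leaving out 1 library at a time gave log2 fold changes of -0.51 to -0.37. In the 4 libraries with W-linked transcripts the log2 fold change was -0.53.

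CD3E (ENSGALG00000007416), the chain that pairs with it in the complex and whose gene is its direct neighbour in the RefSeq annotation, read 448, 428 and 487 CPM across the control libraries against 380, 442 and 355 CPM across the FOS libraries. Here FOS 2 lay inside the control range and the other FOS libraries below it. The log2 fold change was -0.21 (SE 0.13, edgeR adjusted p = 0.654). It was -0.14 without FOS 3, and -0.35 in the 4 libraries with W-linked transcripts. TRAT1 (ENSGALG00000015362) read 18.8, 16.9 and 15.1 CPM across the control libraries against 15.6, 15.1 and 14.7 CPM across the FOS libraries. The groups overlapped at their edges, and the fitted difference was -0.16 on the log2 scale (SE 0.14, edgeR adjusted p = 0.762). It was -0.08 without control 1, -0.24 without control 3 and -0.17 in the 4 libraries with W-linked transcripts.

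**Figure D1:**
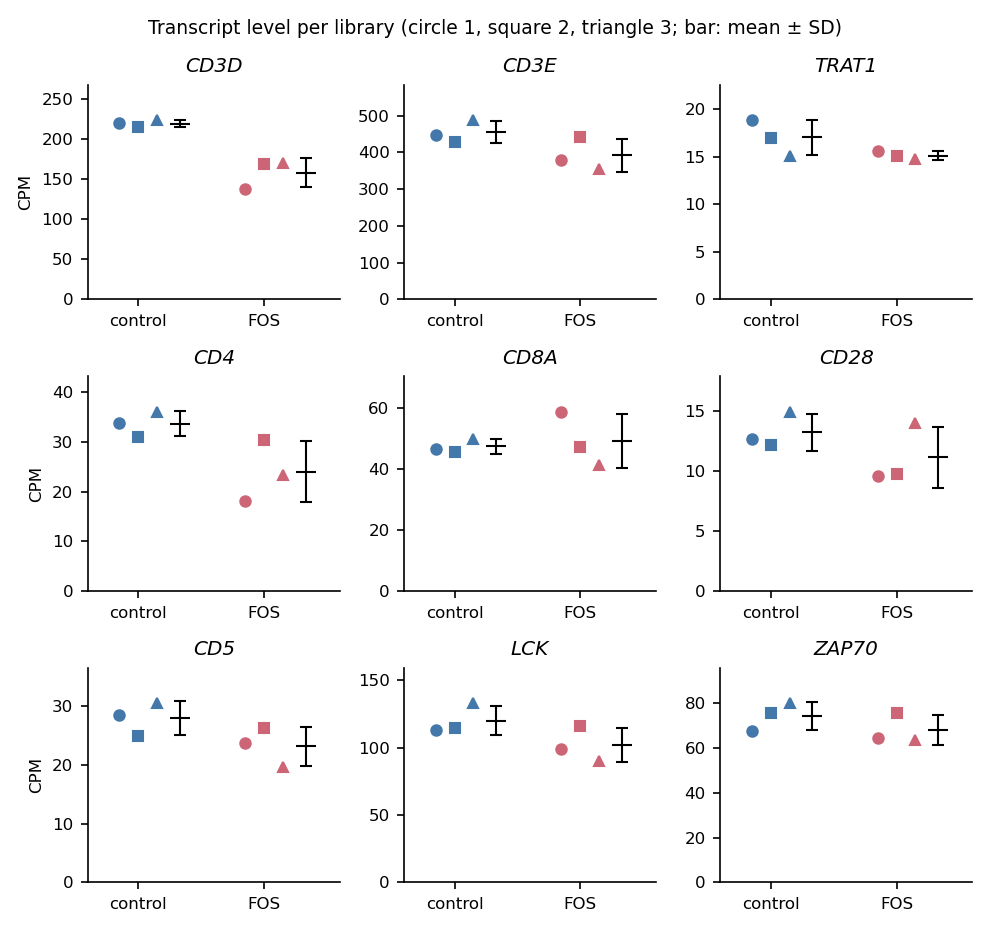
Level of the 9 genes in each library in CPM (y axis, from 0), control in blue and FOS in red, with circle, square and triangle for libraries 1, 2 and 3 and a bar for the mean ± SD of 3 libraries. CD3D and CD4 are the 2 genes whose groups do not overlap on this scale, and CD8A is highest in FOS 1.

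The co-receptors CD4 and CD8A had fitted values of opposite sign, with CD8A read from the row with the most counts. CD4 (ENSGALG00000014477), the co-receptor of helper T cells that binds MHC class II, read 33.8, 31 and 36.1 CPM across the control libraries against 18.2, 30.5 and 23.3 CPM across the FOS libraries. All FOS libraries were below all control libraries, but FOS 2 by a small margin. The log2 fold change was -0.49 (SE 0.19, edgeR adjusted p = 0.51), and -0.32 without FOS 1 to -0.69 without FOS 2. It was -0.76 in the 4 libraries with W-linked transcripts, and -0.51 with these transcripts as a covariate over all 6 libraries. CD8A (ENSGALG00000038559), the alpha chain of the co-receptor that binds MHC class I and marks cytotoxic and many intraepithelial T cells, read 46.7, 45.6 and 50.1 CPM across the control libraries against 58.9, 47.2 and 41.4 CPM across the FOS libraries. FOS 1 was the highest and FOS 3 the lowest of the 6 libraries, so the FOS libraries spanned the whole control range. Its log2 fold change was 0.05 (SE 0.15, edgeR adjusted p = 0.941), and -0.09 without FOS 1. It was also 0.05 in the 4 libraries with W-linked transcripts. On the deposited FPKM, as log2(FPKM + 1), it was -0.06 (SE 0.14), beside a median of -0.058 over all genes. The direction of CD8A therefore depends on the scaling and on FOS 1.

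Both co-receptors were set against each other within each library, which does not depend on library scaling. The ratio of CD4 to CD8A counts was 0.725, 0.681 and 0.721 across the control libraries against 0.308, 0.645 and 0.562 across the FOS libraries. The log2 ratio was -0.50 ± 0.05 in control and -1.05 ± 0.57 in FOS (SD, n = 3), a difference of -0.56. All FOS libraries were lower than all control libraries, with a two-sided p = 0.1 by exact permutation, the smallest p that 3 against 3 can give, and 0.2 after Benjamini-Hochberg adjustment over the 2 ratios tested. FOS 1 carried much of this difference, which was -0.23 without it and -0.80 in the 4 libraries with W-linked transcripts. On FPKM with 0.1 added the difference was -0.47 (exact p = 0.3), and FOS 2 then overlapped the controls.

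The ratio of CD3D to CD3E counts was 0.49, 0.502 and 0.459 across the control libraries against 0.361, 0.381 and 0.478 across the FOS libraries. FOS 3 lay within the control range and the other FOS libraries below it. The log2 ratio differed by -0.26 (exact permutation p = 0.2, two-sided, also 0.2 after adjustment), and by -0.18 without FOS 1 and -0.38 without FOS 3.

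**Figure D2:**
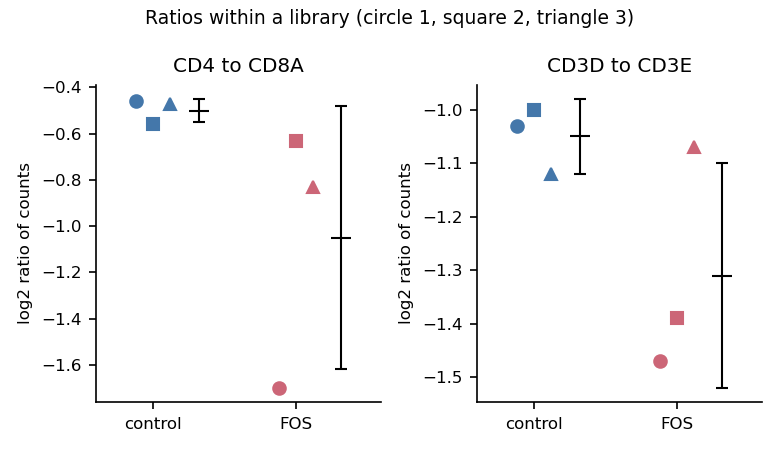
Log2 ratio of counts within each library (y axis) for CD4 to CD8A, on the left, and CD3D to CD3E, on the right, with control in blue, FOS in red, circle, square and triangle for libraries 1, 2 and 3, and the mean ± SD of 3 libraries beside them. The ratio of CD4 to CD8A is near -0.50 in all controls and is -1.70 in FOS 1.

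Values of CD8A carry a limit of the annotation, since chickens have a cluster of similar CD8 alpha genes. The row used here held 74.8% to 83.6% of the counts of all CD8 alpha rows in control and 81.8% to 90.4% in FOS, beside 10 further rows. Those held 152, 215 and 317 counts across the control libraries against 93.2, 150 and 112 counts across the FOS libraries. The authors' counting could split reads between such copies, so CD8A is uncertain to that extent. The row used held 777, 789 and 940 counts across the control libraries against 873, 677 and 738 counts across the FOS libraries. No fold change was fitted over all CD8 alpha rows together. The sign of CD8A, and its ratio to CD4, therefore hold for this row alone. The other rows took, on average, a larger share of the counts in control than in FOS. Adding them would move the fold change of CD8A down and bring its ratio to CD4 closer between the groups. How far was not fitted. The 2 other rows named CD8A held at most 16 counts in a library and were not tested. The beta chain, the partner of CD8 alpha on conventional cytotoxic T cells, had a row of its own, CD8B, at 17.2, 15.8 and 26.2 CPM across the control libraries against 31.1, 29.1 and 15.9 CPM across the FOS libraries. Its groups overlapped, with control 3 and FOS 3 apart from the libraries of their groups (log2 fold change 0.36, SE 0.3, and 0.11 in the 4 libraries with W-linked transcripts). An assembled locus described as CD8 beta chain-like had the opposite sign, at 33.7, 34.7 and 38.1 CPM across the control libraries against 24.8, 36.2 and 28.9 CPM across the FOS libraries (log2 fold change -0.24, SE 0.16). Its groups overlapped as well, and both rows were chosen after their values were seen, so the beta chain had no clear direction.

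CD28 (ENSGALG00000008669), the co-stimulatory receptor, read 12.6, 12.1 and 14.9 CPM across the control libraries against 9.59, 9.69 and 14 CPM across the FOS libraries. FOS 3 lay within the control range and the other FOS libraries below it, and the log2 fold change was -0.25 (SE 0.21, edgeR adjusted p = 0.756). It was -0.15 without control 3, FOS 1 or FOS 2, and -0.44 without FOS 3. In the 4 libraries with W-linked transcripts it was -0.22. CD28 also had the smallest count of any member, 139 reads, for which counting alone gives an SD of 8.48%, against 1.05% for the largest, 9141 reads of CD3E. CD5 (ENSGALG00000031735), the brake on receptor signalling, read 28.5, 24.8 and 30.4 CPM across the control libraries against 23.6, 26.2 and 19.6 CPM across the FOS libraries. The groups overlapped through FOS 2, and the log2 fold change was -0.27 (SE 0.15, edgeR adjusted p = 0.63). It was -0.16 without FOS 3, and -0.45 in the 4 libraries with W-linked transcripts.

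Both kinases showed the same order of libraries. LCK (ENSGALG00000000466) read 113, 115 and 133 CPM across the control libraries against 99.3, 116 and 90.5 CPM across the FOS libraries, or -0.24 as a log2 fold change (SE 0.13, edgeR adjusted p = 0.62). ZAP70 (ENSGALG00000001486) read 67.5, 75.5 and 79.9 CPM across the control libraries against 64.4, 75.7 and 63.6 CPM across the FOS libraries, or -0.13 as a log2 fold change (SE 0.12, edgeR adjusted p = 0.769). For both, FOS 2 lay inside the control range and FOS 1 and FOS 3 below it. Without FOS 3 the log2 fold changes were -0.15 for LCK and -0.08 for ZAP70, and without control 3 -0.16 and -0.08. Without control 1 or FOS 2 that of ZAP70 was -0.20 and -0.21. In the 4 libraries with W-linked transcripts they were -0.38 for LCK and -0.21 for ZAP70. Some counts of LCK are not whole numbers, so its reads may be shared with another row, and its values carry that limit.

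Seen by library, the FOS group was not uniform. In FOS 3, 8 of 9 members were below all controls and CD28 was the exception. In FOS 1, 7 were below, TRAT1 was within the control range and CD8A was above it. In FOS 2, 4 were below (CD3D, CD4, CD28 and TRAT1) and the other 5 were within. TRAT1 was below by less than the rounding, since FOS 2 and control 3 both read 15.1 CPM. Control 3 held the highest value of 7 members, and the lowest value was in FOS 3 for 6 and in FOS 1 for 3. No share over all genes was computed for these counts by library, so they are a description only. The mean log2 CPM of the 9 genes was 5.88, 5.82 and 5.97 across the control libraries against 5.58, 5.75 and 5.59 across the FOS libraries. The median log2 fold change of the 9 was -0.24, beside 0.01 over all genes tested, and 48.9% of all genes had a negative value. It was -0.15 without FOS 3, -0.16 without control 3 and -0.35 when libraries were limited to the 4 with W-linked transcripts. With these transcripts as a covariate over all 6 libraries it was -0.25.

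Marker lists of other cell types, chosen with earlier results of these data known, also differed between the libraries. Of all 13807 genes tested, 48.9% had a negative log2 fold change. At an unadjusted edgeR p under 0.05, 590 of them (4.27%) were lower and 710 higher. The pan-leukocyte list, 14 measured genes of white blood cells in general, had a negative log2 fold change in 14 of 14 (median -0.27), with 0 called by edgeR and 4 at an unadjusted p under 0.05. Its mean log2 CPM was 7.2, 7.07 and 7.21 across the control libraries against 6.72, 7.07 and 6.77 across the FOS libraries. Of 16 epithelial markers 14 had a positive value, and 0 were called. Their median was 0.37, and 0.25 without FOS 1 to 0.47 without FOS 3. At an unadjusted p under 0.05, 5 were higher and 1 lower. Their mean log2 CPM was 8.57 to 8.65 in control and 9.22, 8.79 and 8.72 in FOS 1 to 3. The macrophage list had 11 of 15 negative values (median -0.27), and the B and plasma cell list 11 of 16 (median -0.17). These medians rest on single libraries: that of macrophages was -0.03 without FOS 1, and that of B and plasma cells was -0.04 without FOS 3 and near 0 without control 1. All 15 smooth muscle markers had a negative value (median -0.3, and -0.18 without FOS 1 to -0.51 without FOS 3), with a mean log2 CPM of 8.69 to 9.15 in control and 8.2, 8.73 and 8.89 in FOS 1 to 3. The summed level was 2720 to 3060 CPM in control and 2120 to 2640 CPM in FOS for the pan-leukocyte list, 17500 to 20500 and 23600 to 29500 CPM for epithelium, and 8760 to 12100 and 6490 to 10100 CPM for smooth muscle. Their part in the differences of the 9 genes was not tested.

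Set against the pan-leukocyte list, the 9 genes differed little. Their mean log2 CPM minus that of the list was -1.33, -1.25 and -1.24 across the control libraries against -1.14, -1.32 and -1.18 across the FOS libraries. The groups overlapped, and the difference between them was 0.06, under the SD between libraries of 0.08. When the libraries were scaled by the summed counts of that list, the log2 fold change was -0.15 (SE 0.16) for CD3D, -0.18 (SE 0.17) for CD4 and 0.39 (SE 0.2) for CD8A, with edgeR adjusted p of 0.556, 0.484 and 0.243. The other 6 members then had values from 0.06 to 0.19. This scaling raised the median of all genes to 0.34, so that the median of the 9, then 0.10, stood about as far below the median of all genes as before. The list is not free of T cells, since they express many of its genes. Against the epithelial list the mean of the 9 genes was lower in FOS by a difference of -0.55. The values were -2.77, -2.78 and -2.6 across the control libraries against -3.64, -3.04 and -3.13 across the FOS libraries, which do not overlap. FOS 1 lay lowest, and this difference was not recomputed with a library left out.

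**Figure D3:**
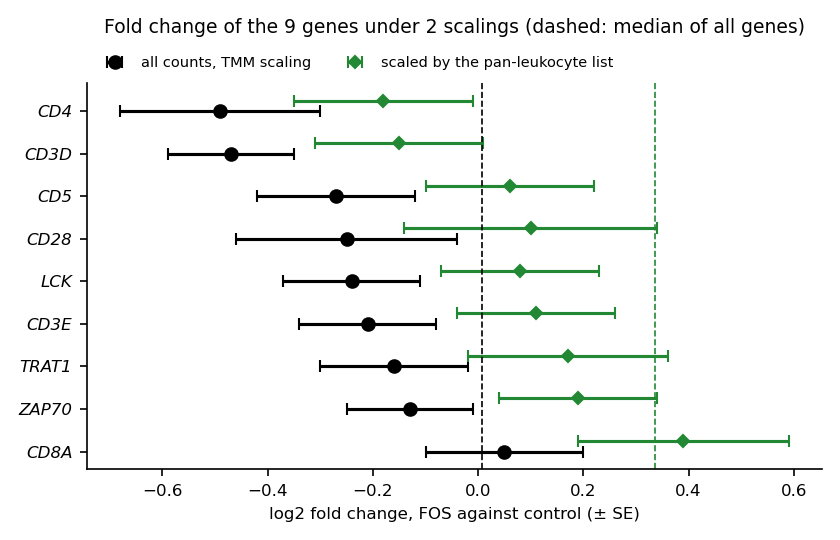
Log2 fold change of FOS against control (x axis, ± SE of the fit to 6 libraries) for the 9 genes, with library sizes scaled by TMM over all genes (black circles) or by the pan-leukocyte list (green diamonds), and dashed lines for the median of all genes under each. With TMM only CD8A lies above 0, and with the pan-leukocyte list only CD3D and CD4 lie below it, while CD3D and CD4 are the lowest and CD8A the highest of the 9 in both.

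**Figure D4:**
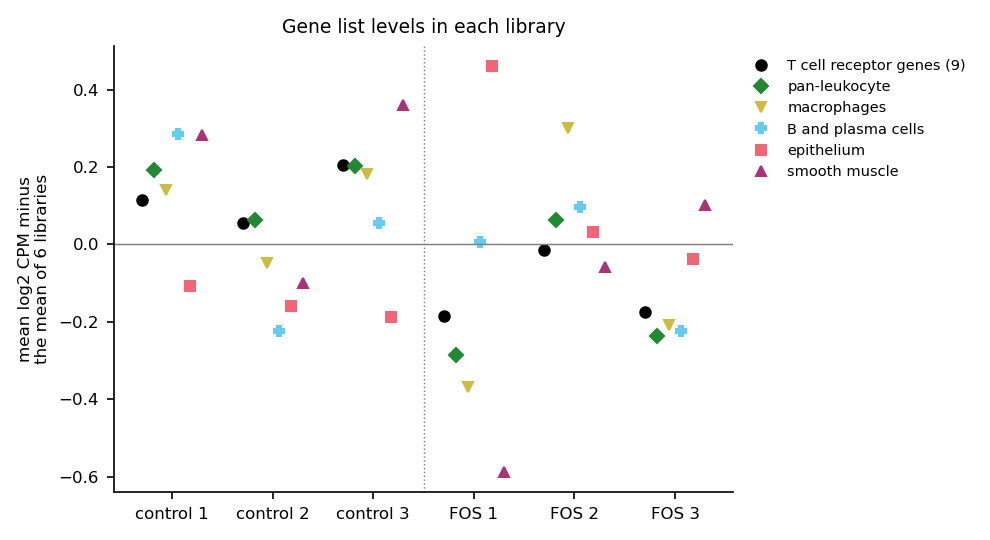
Mean log2 CPM of each gene list in each library, minus its mean over the 6 libraries (y axis), for the 9 T cell receptor genes in black and for lists of other cell types. The 9 genes and the pan-leukocyte list lie close together in every library, and FOS 1 is highest for epithelium and lowest for smooth muscle.

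The rest of the pathway was read from 7 lists, written with earlier results of these data known, so their shares are a description. They held 108 genes tested beside the 9. Of these, 87 had a negative log2 fold change (80.6%, beside 48.9% of all genes). With edgeR 0 passed in either direction. At an unadjusted p under 0.05, 17 were lower and 0 higher, or 15.7% lower beside 4.27% of all genes. DESeq2 called 2 over all genes, PTPRC and PAG1, both lower, and 0 with the replicate number as a block. The median log2 fold change of the 108 was -0.18, beside 0.01 over all genes. Scaled by the pan-leukocyte list it was 0.15, beside 0.34 over all genes. With 1 library left out, the medians below ranged from -0.32 to -0.12 for the receptor chains, -0.35 to -0.16 for kinases and adaptors, -0.11 to -0.06 downstream and -0.24 to -0.14 for inhibitors. They ranged from -0.33 to -0.11 for co-stimulators and checkpoints, -0.36 to -0.17 for regulators and homing receptors and -0.18 to 0.02 for the cytotoxic list. The value nearest 0 came without FOS 1 for the receptor chains and for kinases and adaptors, without FOS 3 for co-stimulators, and without control 3 for regulators. The genes named below had the smallest unadjusted p or the highest level of their list.

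Among the other receptor chains and co-receptors, 5 of 6 measured genes had a negative value (median -0.2). PTPRC (CD45), the phosphatase that keeps LCK active and a gene of the pan-leukocyte list as well, read 455, 430 and 462 CPM across the control libraries against 309, 354 and 337 CPM across the FOS libraries. The groups did not overlap, and the log2 fold change was -0.43 (SE 0.11, edgeR adjusted p = 0.434, DESeq2 adjusted p = 0.0184, and 0.258 with the block). CD247, the zeta chain to which ZAP70 docks, was chosen after its values were seen, because it completes the receptor. It read 62.9, 69.9 and 76 CPM across the control libraries against 59.1, 63.4 and 49.4 CPM across the FOS libraries, where FOS 2 just reached the control range (log2 fold change -0.28, SE 0.13). TARP, the table's name for a row of the T cell receptor gamma chain, chosen likewise, read 148, 140 and 147 CPM across the control libraries against 108, 136 and 152 CPM across the FOS libraries, so that FOS 3 was the highest library and FOS 1 the lowest (log2 fold change -0.13, SE 0.14).

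Among proximal kinases and adaptors, 12 of 13 measured genes had a negative value (median -0.21), with 4 at an unadjusted p under 0.05. LCP2 (SLP-76), the scaffold that ZAP70 phosphorylates, read 77.8, 77.9 and 90.1 CPM across the control libraries against 56.2, 67.5 and 59.1 CPM across the FOS libraries, without overlap (log2 fold change -0.43, SE 0.12, edgeR adjusted p = 0.443). SH2D1A (SAP), an adaptor of the SLAM family of receptors, stood at 20 ± 4.62 and, with FOS, 12.3 ± 1.02 CPM (SD, n = 3; edgeR adjusted p = 0.463). GRAP2 (GADS), which links LCP2 to the membrane scaffold LAT, stood at 49.9 ± 6.23 and 39.5 ± 2.71 CPM, and FYB1, a further partner of LCP2, at 50 ± 7.16 and 35.5 ± 8.65 CPM (SD, n = 3). The most abundant gene of the list, GRB2, stood at 149 ± 7 and 139 ± 4.77 CPM (SD, n = 3), with overlapping groups.

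Inhibitors of receptor signalling also had mostly negative values. Of 16 measured, 15 had a negative value (median -0.19), 5 of them at an unadjusted p under 0.05. PAG1, the membrane anchor of the LCK-inhibiting kinase CSK, read 13.9, 14.2 and 18.7 CPM across the control libraries against 7.56, 9.06 and 9.83 CPM across the FOS libraries. The fitted log2 difference was -0.82 (SE 0.19, edgeR adjusted p = 0.434, DESeq2 adjusted p = 0.0351, and 0.14 with the block). CBL, a ubiquitin ligase that removes activated receptor components, stood at 118 ± 3.61 and 88.1 ± 6.58 CPM (SD, n = 3), with an edgeR adjusted p of 0.434. UBASH3A, a phosphatase-family suppressor of the receptor, stood at 44.5 ± 7.62 and 31.2 ± 2.43 CPM, and INPP5D (SHIP1), a lipid phosphatase, at 52.4 ± 1.79 and 43 ± 3.09 CPM (SD, n = 3). Over the whole list, 7 of 16 were lower and 1 higher without overlap. Of all 13807 genes, 7.84% were lower without overlap and 1184 genes higher. The 7 lists together had 20 of 108 lower and 2 higher. Lower without overlap were 1 of 6 receptor chains, 3 of 13 kinases and adaptors and 3 of 27 downstream genes. So were 2 of 13 co-stimulators and checkpoints, 4 of 24 regulators and homing receptors and 0 of 9 cytotoxic genes. PTPN6 (SHP-1), the most abundant inhibitor, stood at 294 ± 14.2 and 267 ± 9.86 CPM (SD, n = 3).

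Genes further downstream were closer to the median of all genes, with 16 of 27 negative (median -0.07). ITPR1, a calcium channel of the endoplasmic reticulum that many cell types use, stood at 109 ± 15.6 and 78.2 ± 5.12 CPM, and NFATC2, a calcium-driven transcription factor, at 43.3 ± 8.97 and 30.2 ± 5.54 CPM (SD, n = 3), both at an unadjusted p under 0.05. JUN, the most abundant, stood at 287 ± 45.2 and 288 ± 22.2 CPM (SD, n = 3). Of 13 co-stimulators and checkpoints 11 were negative (median -0.21). Among them TNFRSF4 (OX40) stood at 6.48 ± 1.26 and 4.32 ± 0.53 CPM, and ICOS, the most abundant, at 43.5 ± 4.07 and 35.7 ± 8.95 CPM (SD, n = 3).

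Regulators and homing receptors of T cells had 22 of 24 negative values (median -0.29). ETS1, a transcription factor of lymphocytes, read 114, 117 and 129 CPM across the control libraries against 69.5, 85 and 92.9 CPM across the FOS libraries, without overlap (log2 fold change -0.54, SE 0.13, edgeR adjusted p = 0.434). IL2RB, a chain of the receptors for IL-2 and IL-15, stood at 70.5 ± 4.76 and 51.9 ± 9.56 CPM, and IKZF3 (Aiolos) at 74 ± 3.72 and 61.1 ± 5.12 CPM (SD, n = 3). SATB1, a chromatin organiser needed in T cell development, stood at 25.2 ± 3.81 and 19 ± 3.1 CPM (SD, n = 3), with groups that overlapped. RUNX3, a factor of CD8 lineage T cells and the most abundant of the list, stood at 133 ± 14.3 and 108 ± 13.3 CPM (SD, n = 3), with overlapping groups. The cytotoxic and NK list had 6 of 9 negative values (median -0.07) and 0 at an unadjusted p under 0.05 with edgeR. Its most abundant gene, GNLY (granulysin), read 804, 1110 and 1040 CPM across the control libraries against 1120, 843 and 849 CPM across the FOS libraries. FOS 1 was barely above control 2, and on FPKM (1175.21) it lay below control 2 (1230.93) and control 3 (1193.68). GZMA, a granule protease of cytotoxic cells that was chosen after its values were seen, had the largest positive fold change of the 7 lists. It read 108, 309 and 126 CPM across the control libraries against 517, 240 and 277 CPM across the FOS libraries, highest in FOS 1, with overlapping groups. Its log2 fold change was 0.93 (SE 0.46, edgeR adjusted p = 0.592), from 0.52 to 1.55 with 1 library left out, and 1.75 (edgeR adjusted p = 0.484) in the 4 libraries with W-linked transcripts.

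**Figure D5:**
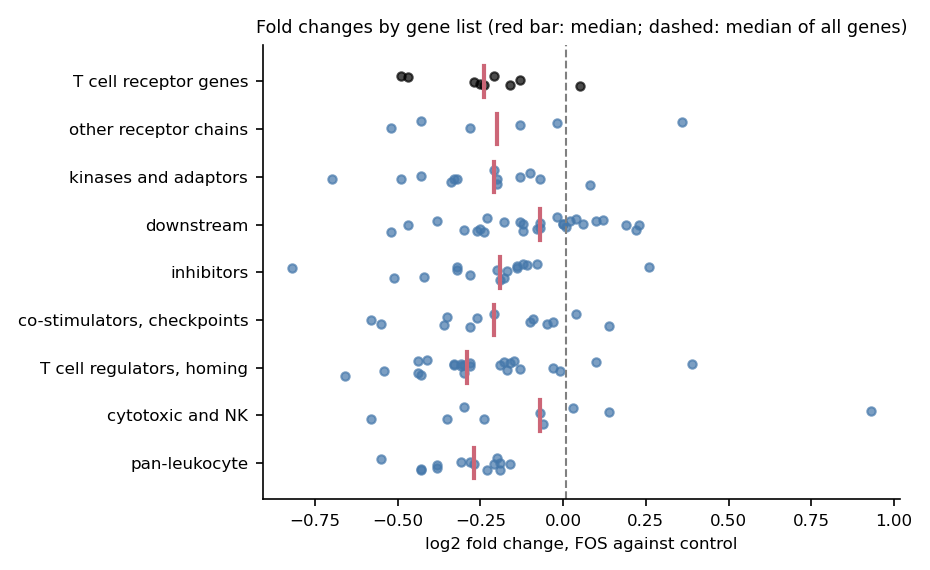
Log2 fold change of FOS against control (x axis) for each measured gene (points) of the 9 T cell receptor genes, of 7 lists of the pathway and of the pan-leukocyte list, with a red bar at each median and a dashed line at the median of all genes. Downstream genes and the cytotoxic list have medians of -0.07, and the other lists lie between -0.29 and -0.19.

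The genes most like the 9 were sought over 12033 other genes with a symbol, by the root mean square difference between a gene's centred log2 CPM and the mean of the 9 over the 6 libraries. The smallest differences were 0.028 log2 units for RAB29, a vesicle GTPase, 0.031 for GMIP, 0.039 for SASH3, an adaptor of lymphocytes, 0.041 for PLCG1, the phospholipase that the receptor activates, 0.041 for the chaperone HSPA8 and 0.043 for PRKACB, a kinase. The median over genes with a symbol was 0.262. Of the 9 genes themselves CD3E lay nearest to their mean, at 0.051, followed by LCK at 0.071 and ZAP70 at 0.091. That mean includes the gene measured, which makes these distances smaller, and 15 genes still lay nearer to it than CD3E. CD8A at 0.22, CD4 at 0.215 and CD28 at 0.215 lay farthest. For LCK alone the nearest genes were CYTIP, at 0.035, CTSC, at 0.038, and PRKCH, at 0.038. With so many genes and 6 libraries small differences arise often, and these are a description.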

How the data were processed

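RNA of 6 ileum libraries was sequenced, 3 per group, grouped by sample titles. A small RNA kit is named, per the labels' protocols. Tools listed in the submitters' processing notes are StringTie 1.3.1, HISAT2, Bowtie2, DESeq2 and fastp 0.18.0, without saying what each did. Coordinates are left out, as the build was not given in the sources used here; nor was the counter. The authors deposited expected counts (estimated counts, 8.06% of values not whole at a tolerance of 1e-09) and FPKM per gene. The table has 12 further value columns, for libraries not among the samples described, which were not used.

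Counts were rounded, filtered with filterByExpr, TMM-scaled and fitted with edgeR 4.0.16 (R 4.3.3; quasi-likelihood test), without covariates, with Benjamini-Hochberg adjustment over all 13807 genes. The procedure was run on simulated counts with planted changes, all larger than those of the members. That run cannot show whether changes as small as theirs would be called. The SE came from the fold change and F. CPM uses TMM-scaled library sizes. List levels are means of log2 CPM with a prior count of 2. SDs from counting alone do not cover biological spread. For ratios, exact permutation tests (two-sided) were used.

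The members and the gene lists were chosen with earlier results of these data known. Of 240 list entries 213 were found, by the table's symbols or, through NCBI gene IDs, RefSeq names of GRCg7b. For 15 entries RefSeq gives another name than the table, and the table's name was kept (1 row is named NCK2 in the table and NCK1 in RefSeq and was counted once). Named genes were the 9 members, in each list up to 4 genes with the smallest unadjusted p under 0.05 and the most abundant gene, and the genes most like the members.

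As a check of pairing, libraries with the same number in their titles were correlated in their deviations from the group mean. The 3 correlations were 0.24, 0.388 and 0.198, each above the limit of 0.1 for treating numbers as pairs. Control 2 and FOS 2, with the highest correlation, were also the libraries without W-linked transcripts. No label says what a number marks, and the main fit and the permutation tests were left unpaired for that reason, despite these correlations. The replicate block was an alternative, as were RLE factors, scaling by the pan-leukocyte list, no filter, at least 1 CPM in 3 libraries, DESeq2 1.42.0, limma-voom (limma 3.58.1), limma on log2(FPKM + 1) and log2(FPKM + 0.1), W-linked transcripts (Wpkci-7 above 10 CPM) as a covariate or as a filter on libraries, and leaving out each library. DESeq2 with the block was added after the data were examined.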

Additional observations from a re-analysis of the deposited data

How the results depend on the processing

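Of 162 fold changes of single members under alternatives, 152 kept their direction and their side of the threshold. DESeq2 called CD3D (log2 fold change -0.47) and so 1 member, and 2 genes of the pathway lists. With the replicate block edgeR called 0 members and 0 pathway genes, as without it, and the median log2 fold change of the members stayed at -0.24. DESeq2 with the block called 0 of both, so that it lost those calls; among the members and the 7 pathway lists the block changed no other call. Over all genes DESeq2 called 149 without the block and 115 with it. Scaling by the pan-leukocyte list, which shifted all genes by its construction, gave a members' median of 0.10 and turned CD3E (0.11), CD5 (0.06), CD28 (0.10), LCK (0.08), ZAP70 (0.19) and TRAT1 (0.17) positive. CD8A turned negative on log2(FPKM + 1) and log2(FPKM + 0.1), at -0.06 in both, where the medians of all genes were -0.058 and -0.072. It was also negative without FOS 1, at -0.09. The cause was not tested. The members' median was -0.35 in the 4 libraries with W-linked transcripts, and -0.30 to -0.15 when 1 library was left out. With W-linked transcripts as a covariate over all 6 libraries it was -0.25. The difference relative to the pan-leukocyte list was 0.02 to 0.11 with 1 library left out. Against the epithelium list it was -0.55 with all libraries, and it was not recomputed with 1 left out. The log2 ratio of CD4 to CD8A differed by -0.77 to -0.23 with 1 library left out and that of CD3D to CD3E by -0.38 to -0.18. Within same-numbered pairs these ratios differed by -0.56 and -0.26 (exact sign-flip p = 0.25, the smallest that 3 pairs allow, and 0.5). Depth limits CD28 and TRAT1 most.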
